A study of Danio rerio with 12 samples.

Results

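The genes described here are 8 markers of microglia and other leukocytes in the zebrafish brain: coro1a, ncf1, cxcr4b, lcp1, spi1b, csf1ra, mpx and lyz. They were chosen as the array features, called probe sets, whose single gene symbol in the platform annotation is one of these names. All 8 genes had at least 1 such probe set, 13 probe sets in all, among 8793 genes with a single-symbol probe set. Where a gene had several, the one with the highest mean signal stands for it, and the others are described beside it.

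Microglia are the resident macrophages of the brain, and neutrophils and lymphocytes reach the brain mainly through the blood and the meninges. In zebrafish, the transcription factor encoded by spi1b directs progenitors towards the myeloid fate, and the receptor encoded by csf1ra acts in the settling of macrophages in the brain. The other genes mark blood leukocytes more broadly or, for mpx and lyz, the granules of neutrophils and some macrophages.

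Whole brains of adult wild-type fish of the AB strain were compared after 4 social experiences, with 3 Affymetrix zebrafish arrays for each. Winners and losers had fought a real opponent, mirror fighters had fought their own reflection, and isolated fish had met no opponent. Every group had spent 5 days alone beforehand, and the brains were taken 30 min after the manipulation. Nothing in the labels tells if 1 fish or a pool went on each array, so p-values measure only the spread between these arrays, and they do not give the sex of the fish on an array. Values are log2 of the deposited signal intensity of a probe set, so a difference of 1 is a doubling, and levels are compared between arrays for the same gene only.

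The 12 arrays were alike in overall signal, with median intensities of 94.1 to 104, and arrays of 1 group correlated at 0.957 to 0.977 over 15502 probe sets. The neuron markers averaged between 11.39 and 11.96 on every array, against array medians of 6.56 to 6.71 over all probe sets. The hybridization controls, 14 probe sets for transcripts that are spiked in before hybridization, read 10.48 ± 0.25 in winners and 10.35 ± 0.32 in losers, against 9.40 ± 0.10 in mirror fighters and 9.37 ± 0.12 in isolated fish (SD, n = 3 each). The fights with a real opponent and this control level therefore cannot be told apart when winners or losers are set against mirror fighters or isolated fish. Winners against losers, and mirror fighters against isolated fish, were compared within arrays of like control level.

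The marker genes read lowest in winners and highest in isolated fish, but no difference of a single gene passed the test across all probe sets. Averaged over the 8 genes, the level was 5.30 ± 0.35 in winners, 5.77 ± 0.49 in losers, 5.89 ± 0.24 in mirror fighters and 6.39 ± 0.24 in isolated fish (SD, n = 3 each). Isolated fish had the highest group mean for 7 of the 8 genes, and csf1ra was highest in mirror fighters. For lcp1 this rested on 7.15 in isolated fish against 7.13 in losers. For lyz and mpx it rested on isolated array 3. Without that array, lyz was 0.78 higher in losers, and mpx 0.24 higher in mirror fighters, than in isolated fish. Winners had the lowest group mean for 5 genes and losers for 3. In whole-brain RNA, fewer cells of a type and less RNA per cell cannot be told apart, and this holds for every value below.

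**Figure D1:**
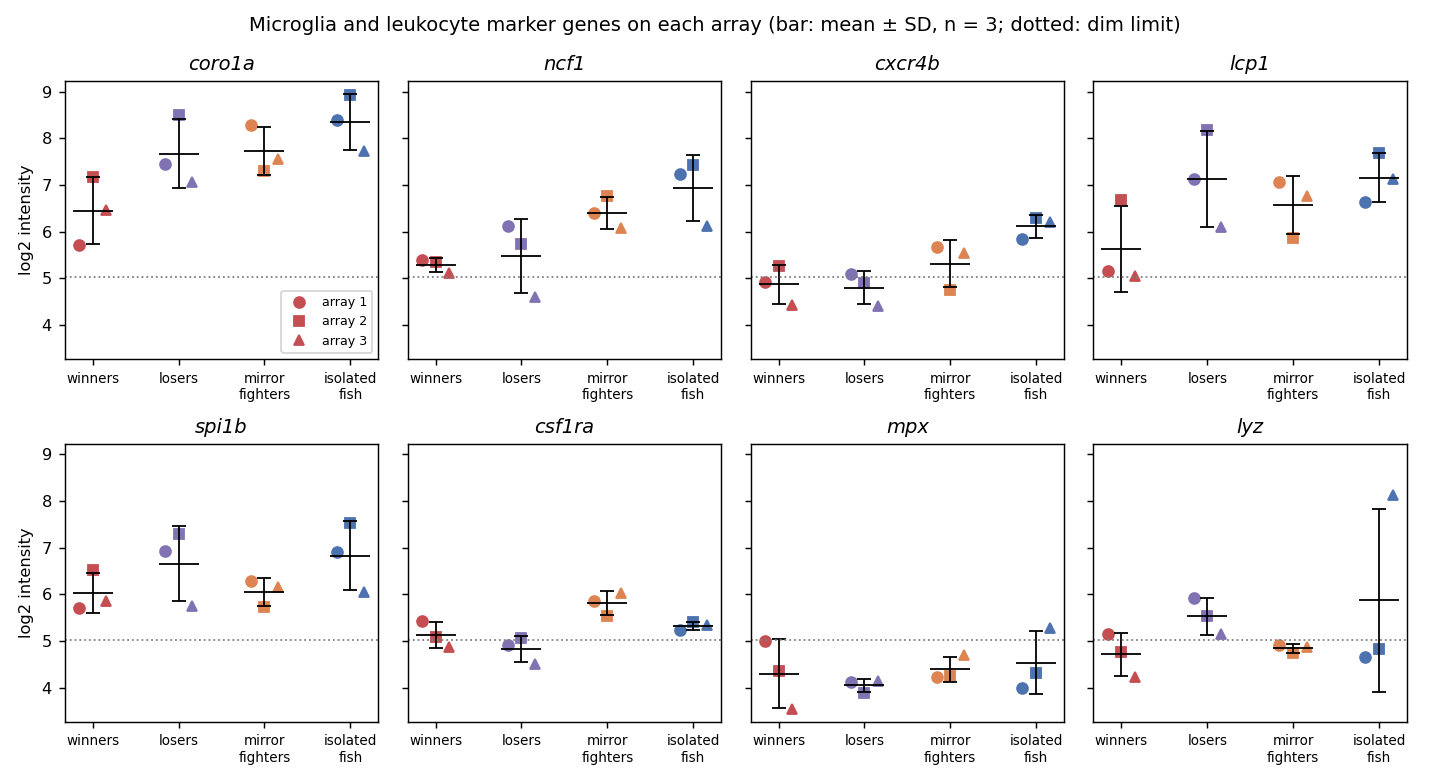
The log2 intensity of each marker gene (y axis) is plotted for the 3 arrays of each group (x axis), with the mean and SD as bars and a dotted line at 5.02, below which the dimmest 25% of probe sets lie. Isolated arrays stand above all winner arrays for coro1a, ncf1 and cxcr4b, and 1 isolated array stands alone for lyz at 8.14.

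The plot of log2 intensity by group shows several patterns. The levels of coro1a, ncf1 and cxcr4b separate winners from isolated fish without overlap, those of lcp1 and spi1b overlap between these groups, while those of csf1ra are highest in mirror fighters, those of mpx are dim, and those of lyz rest on 1 isolated array. The genes are taken below by role, starting with the transcription factor and the receptors.

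The spi1b transcript had log2 intensities of 5.70, 6.52 and 5.85 on winner arrays 1, 2 and 3, 6.92, 7.30 and 5.75 on loser arrays, 6.29, 5.72 and 6.16 on mirror arrays and 6.91, 7.52 and 6.06 on isolated arrays. Every group holds at least 1 array at or below 6.06, so the groups overlap, and within-group spread carries most of the variation. Winners minus isolated fish was -0.80 ± 0.44 (SE), with an adjusted p of 0.333 by limma. The second spi1b probe set is dim, with 9 of 12 arrays under an intensity of 32, but it followed the first at a Pearson r of 0.87 over the 12 arrays. On it the winner arrays lay below all isolated arrays, by -1.06 ± 0.44 with an adjusted p of 0.230.

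The gene csf1ra encodes a receptor for colony stimulating factor 1 that in zebrafish is expressed by macrophages, microglia and pigment cells. It read 5.43, 5.08 and 4.88 in winners, 4.91, 5.06 and 4.51 in losers, 5.86, 5.53 and 6.03 in mirror fighters and 5.24, 5.41 and 5.33 in isolated fish. It is the sole gene of the 8 with its highest mean outside isolated fish: mirror arrays stood above every other array, and all loser arrays lay below all isolated arrays. Losers minus mirror fighters was -0.98 ± 0.20 (SE), a ratio of 0.507, with a limma adjusted p of 0.0869. That p passes 0.05 under 2 other settings, quantile normalization (0.0446) and the test without the dimmest probe sets (0.0499). The share of all probe sets called under these settings is not given here. Mirror fighters minus isolated fish was 0.48 ± 0.20 with an adjusted p of 1.00, and winners minus isolated fish was -0.20 ± 0.20 with an adjusted p of 0.607.

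The gene cxcr4b encodes a receptor for the chemokine Cxcl12, used by leukocytes and also by migrating neural and lateral line cells in fish. It read 4.93, 5.25 and 4.43 in winners, 5.10, 4.89 and 4.41 in losers, 5.66, 4.74 and 5.54 in mirror fighters and 5.84, 6.30 and 6.21 in isolated fish. All 3 isolated arrays stood above all 9 others, and winners and losers were close, with a difference of 0.07 ± 0.29 (SE). Losers minus isolated fish was -1.32 ± 0.29, a ratio of 0.401, with a limma adjusted p of 0.0759. That p passes 0.05 with 32 added before the log (0.0396) and without the dimmest probe sets (0.0456), settings whose share of all probe sets called is not given here. Winners minus isolated fish was -1.25 ± 0.29 with an adjusted p of 0.111, and mirror fighters minus isolated fish was -0.80 ± 0.29 with an adjusted p of 1.00.

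Next come coro1a and lcp1, whose products, coronin 1A and L-plastin, bind actin filaments in blood leukocytes. On the brighter coro1a probe set, winner arrays read 5.72, 7.18 and 6.45, loser arrays 7.46, 8.51 and 7.06, mirror arrays 8.29, 7.31 and 7.57 and isolated arrays 8.40, 8.93 and 7.73. The winner arrays lay below all mirror and isolated arrays, and winner array 2 lay above loser array 3. The lowest and highest arrays differed 9.27-fold in intensity, and the group means were 6.45 ± 0.73 in winners, 7.67 ± 0.75 in losers, 7.72 ± 0.51 in mirror fighters and 8.36 ± 0.60 in isolated fish (SD, n = 3 each).

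Against isolated fish, coro1a in winners was lower by the largest amount of the 8 genes, -1.91 ± 0.48 (SE), a ratio of 0.267, with a limma adjusted p of 0.112. Losers minus isolated fish was -0.68 ± 0.48 with an adjusted p of 0.432. Winners minus losers was -1.22 ± 0.48, with an unadjusted p of 0.0267 and an adjusted p of 1.00. The other coro1a probe set gave a different picture between groups: it is dim, under an intensity of 32 on all 12 arrays, and read 0.56 ± 0.30 higher in winners than in isolated fish with an adjusted p of 0.317. The pair of probe sets had an r of -0.03 over the 12 arrays but of 0.77 over deviations from group means, and with their mean in place of the brighter one, winners minus isolated fish was -0.67.

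The lcp1 values were 5.15, 6.69 and 5.06 in winners, 7.12, 8.17 and 6.11 in losers, 7.06, 5.87 and 6.77 in mirror fighters and 6.64, 7.69 and 7.13 in isolated fish. Winner arrays 1 and 3 were the lowest of all, while winner array 2 stood above isolated array 1. Winners minus isolated fish was -1.52 ± 0.58 (SE) with a limma adjusted p of 0.200, and winners minus losers was -1.50 ± 0.58 with an adjusted p of 1.00. Losers and isolated fish had nearly the same mean, 7.13 ± 1.03 and 7.15 ± 0.53 (SD, n = 3 each).

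The gene ncf1 encodes a cytosolic organizer subunit of the NADPH oxidase, which makes superoxide in phagocytes. Its log2 intensities were 5.40, 5.35 and 5.11 in winners, 6.12, 5.74 and 4.59 in losers, 6.39, 6.76 and 6.07 in mirror fighters and 7.24, 7.43 and 6.13 in isolated fish. All winner arrays and all loser arrays lay below all isolated arrays, and winner arrays also lay below all mirror arrays. The margin for losers was narrow, with 6.12 on loser array 1 and 6.13 on isolated array 3. Winners minus isolated fish was -1.65 ± 0.41 (SE), a ratio of 0.319, with a limma adjusted p of 0.112, and losers minus isolated fish was -1.45 ± 0.41, a ratio of 0.366, with an adjusted p of 0.108. Between winners and losers the difference was -0.20 ± 0.41.

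The last genes, mpx and lyz, encode myeloperoxidase and lysozyme, proteins of neutrophil granules. The brightest of the 4 mpx probe sets is itself dim, under an intensity of 32 on 10 of 12 arrays. It read 5.0, 4.36 and 3.54 in winners, 4.12, 3.89 and 4.15 in losers, 4.22, 4.26 and 4.70 in mirror fighters and 4.00, 4.31 and 5.29 in isolated fish. The 4 groups overlap widely except that loser arrays lay below mirror arrays, and the largest difference of group means, losers minus isolated fish, was -0.48 ± 0.38 (SE) with a limma adjusted p of 0.497. The other mpx probe sets are dimmer still: one is at the floor of the data on 11 of 12 arrays, and the others pointed the other way in losers against isolated fish, at 1.66 ± 0.49 with an adjusted p of 0.114 and at 0.71 ± 0.53 with an adjusted p of 0.461.

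For lyz the values were 5.15, 4.76 and 4.23 in winners, 5.92, 5.53 and 5.14 in losers, 4.91, 4.74 and 4.87 in mirror fighters and 4.66, 4.83 and 8.14 in isolated fish. Isolated array 3 stood far above the other 11, which alone makes the range over arrays 15.0-fold. Winners minus isolated fish was -1.16 ± 0.74 (SE) with a limma adjusted p of 0.402, and without isolated array 3 it was -0.03. Losers minus isolated fish was -0.35 ± 0.74 with all arrays and 0.78 without that one. Loser arrays lay above all mirror arrays, by 0.69 ± 0.74 on average with an adjusted p of 0.647.

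**Figure D2:**
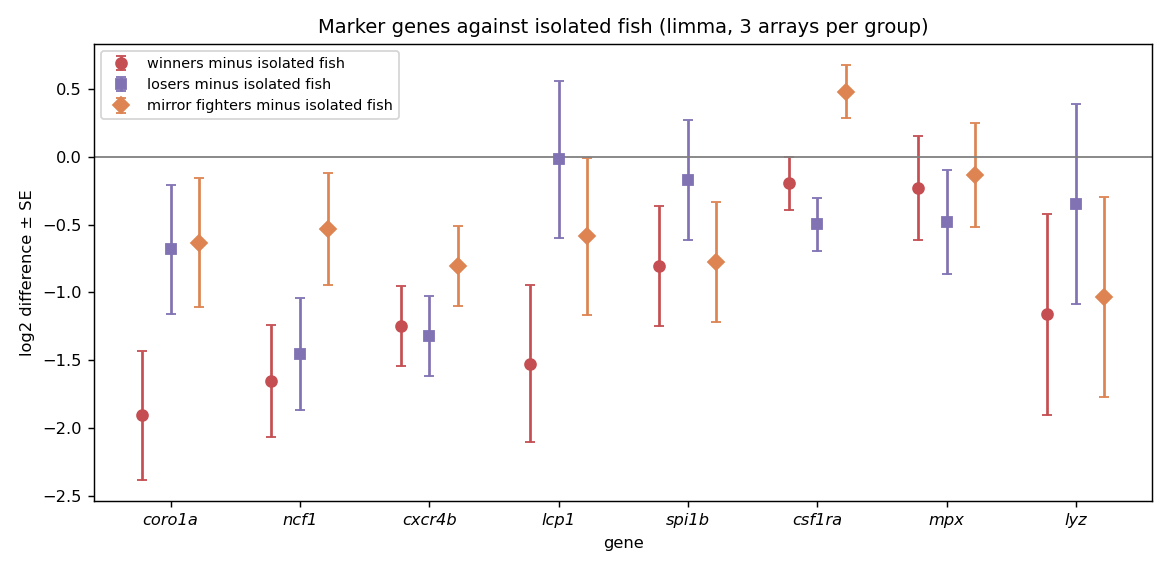
For each marker gene (x axis), the limma log2 difference of winners, losers and mirror fighters from isolated fish (y axis) is drawn with its SE. All 8 differences of winners and of losers lie below 0, as do 7 of 8 for mirror fighters, the exception being csf1ra at 0.48, and the winner differences reach -1.91 for coro1a.

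The plot of differences from isolated fish sets the 3 comparisons side by side. They share the isolated arrays, so a high isolated array moves all of them together. In winners against isolated fish, 0 of 8 genes were called by limma at an adjusted p under 0.05, where 0.245% of all probe sets were called. At an unadjusted p under 0.05, 4 genes were lower (coro1a, ncf1, cxcr4b and lcp1) and 0 higher, against 10.2% of all probe sets lower and 9.42% higher. The arrays did not overlap for 3 of 8 genes, all lower in winners, against 13.2% of all probe sets. All 8 differences were below 0, against 49% of probe sets, and their median was -1.20 against 0.01 over all probe sets. With 32 added before the log this median was -0.76, and with the level of the spiked controls taken as a covariate it was -1.98, with 0 genes called under either. The control level was 9.99 to 10.76 in winner and loser arrays and 9.27 to 9.51 in mirror and isolated arrays, without overlap. The fit with this covariate therefore cannot separate the control level from the fights, here or where it is given below.

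In losers against isolated fish, 0 of 8 genes were called, with 0.568% of all probe sets called. The genes ncf1, cxcr4b and csf1ra were lower at an unadjusted p under 0.05 (12.1% of all probe sets), and these 3 also had arrays that did not overlap (15.3%). All 8 differences were again below 0 (50.8% of probe sets), with a median of -0.49 against -0.01, and of -1.18 with the control level as a covariate. The genes with small differences here were lcp1 at -0.02 and spi1b at -0.17, and both turned positive without loser array 3, to 0.49 and 0.28.

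In mirror fighters against isolated fish, 0 of 8 genes were called, as was 0% of all probe sets. At an unadjusted p under 0.05, cxcr4b was lower and csf1ra higher, against 2.23% of all probe sets lower and 1.61% higher. The same pair had arrays without overlap, against 5.78% of probe sets lower and 4.94% higher. The median of the 8 differences was -0.61 against 0.00, and 7 of 8 were below 0 (49.2% of probe sets).

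Winners against mirror fighters called 0 of 8 genes and 0.00645% of all probe sets. The genes coro1a (-1.27 ± 0.48 SE), ncf1 (-1.12 ± 0.41) and csf1ra (-0.68 ± 0.20) were lower at an unadjusted p under 0.05 (8.61% of probe sets) and without overlap of arrays (11.7%). All 8 differences were below 0 (49.5%), with a median of -0.56 against 0.00 over all probe sets and of -1.27 with the control level as a covariate, but spi1b was close to 0 at -0.03.

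Losers against mirror fighters called 0 of 8 genes and 0.174% of all probe sets. At an unadjusted p under 0.05, ncf1 and csf1ra were lower (10.1% of probe sets). Arrays did not overlap for csf1ra and mpx, which were lower (14%), and for lyz, which was higher (10.3%). Only 5 of 8 differences were below 0 (50.1%), and the median was -0.19 against -0.00. With the mean of all probe sets of a gene in place of the brightest, this median was 0.21, and with the control level as a covariate it was -0.70.

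Winners against losers, whose arrays had like control levels, called 0 of 8 genes and 0% of all probe sets. At an unadjusted p under 0.05, coro1a and lcp1 were lower in winners (1.96% of probe sets), and for no gene were the arrays of winners all below or all above those of losers (2.64% of probe sets below, 3.93% above). Of the 8 differences, 5 were below 0 (44.4%), with a median of -0.42 against 0.02, which was -0.83 without loser array 3 and -0.19 without loser array 1. Same-numbered winner and loser arrays were also compared, though the labels do not say that they belong together. Within the same-numbered pairs, winner arrays 1, 2 and 3 read below loser arrays in every pair for coro1a (-1.74, -1.33 and -0.60), lcp1 (-1.98, -1.48 and -1.05) and lyz (-0.77, -0.77 and -0.91), where 10.2% of all probe sets were lower in all pairs. The receptor csf1ra was higher in every pair (0.52, 0.02 and 0.37), as were 15% of all probe sets. An F-test over all 4 groups at once called 0 of 8 genes and 0.277% of all probe sets, with the lowest adjusted p, 0.125, for cxcr4b and csf1ra, and at an unadjusted p under 0.05 it picked 4 genes (coro1a, ncf1, cxcr4b and csf1ra), against 18.6% of all probe sets.

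Arrays of the same group also differed in the marker genes. Averaged over all 8 genes, winner arrays 1, 2 and 3 read 5.31, 5.65 and 4.94, loser arrays 5.96, 6.14 and 5.21, mirror arrays 6.09, 5.61 and 5.96, and isolated arrays 6.12, 6.55 and 6.50. The 6.50 of isolated array 3 includes its lone high lyz value of 8.14. Over coro1a, ncf1, cxcr4b, lcp1 and spi1b alone, that array was the lowest isolated one, at 6.65. The same 8-gene mean, with this value in it, is the reference for the nearest genes and the gene lists below. Winner array 3 and loser array 3 were the low ones, with 0 of 8 genes above the gene's own mean over all arrays. Isolated array 2 was the highest array for 4 genes (coro1a, ncf1, cxcr4b and spi1b), isolated array 3 for mpx and lyz, loser array 2 for lcp1 and mirror array 3 for csf1ra.

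**Figure D3:**
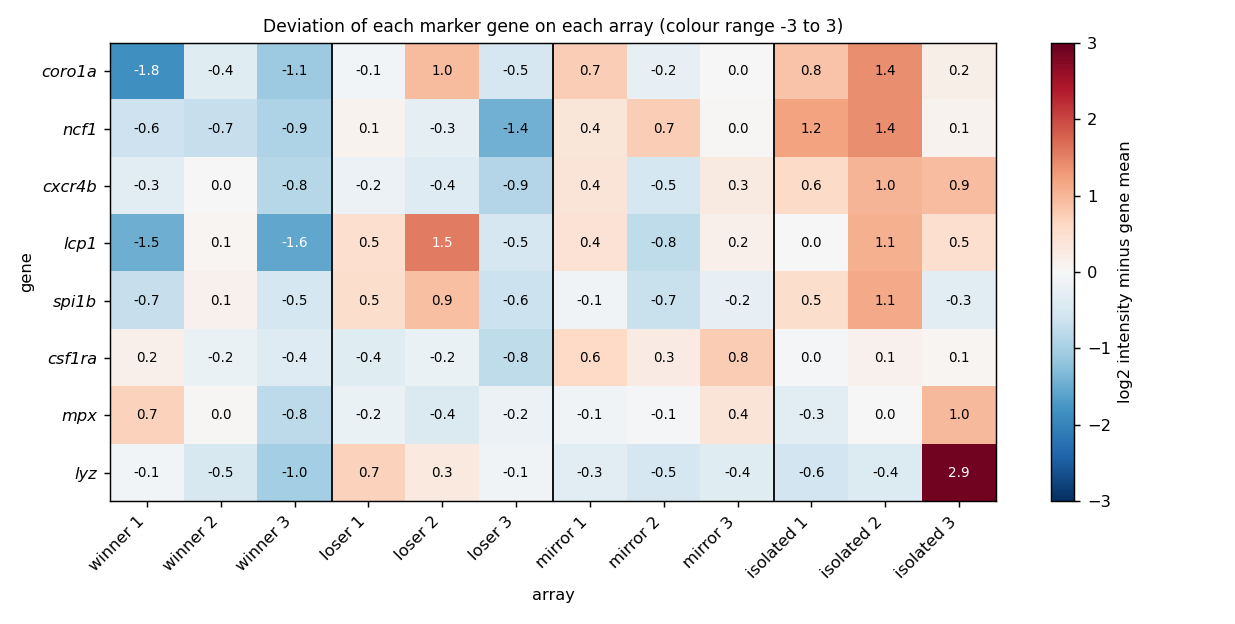
Each cell gives the log2 intensity of a marker gene (rows down the y axis) on an array (x axis) minus that gene's mean over the 12 arrays, coloured from -3 to 3. Winner array 3 and loser array 3 are below the mean for all 8 genes, and the high lyz value of isolated array 3 is not shared by coro1a, ncf1 or spi1b.

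The map of deviations shows steps between arrays of the same social experience, which can be read beside the median of -1.20 between winners and isolated fish. Loser array 3 read lower than loser array 2 for 7 of 8 genes, with a median of -0.85 and with lcp1 at -2.06, while 53.1% of all probe sets were lower and their median was -0.03. Winner array 3 read lower than winner array 2 for all 8 genes, with a median of -0.69 against -0.04 over all probe sets. Isolated array 1 read lower than isolated array 2 for all 8 genes, with a median of -0.39 against -0.01, and mirror array 2 read lower than mirror array 3 for 7 of 8, with a median of -0.44 against -0.04. In each of the 12 pairs of arrays within a group, the array with the lower mean of the 8 genes was set against the other. A majority of genes lower is thus largely fixed by that choice, while the values over all probe sets are not. The 4 pairs above were chosen from the 12 after their values were seen. The other 8 were mostly less one-sided: winner array 1 against 2 and loser array 1 against 2 had 4 genes lower and 4 higher, with medians of -0.14 and 0.03, and isolated array 1 against 3 had 5 lower and 3 higher, with a median of -0.23. Of the rest, 6 genes were lower in 4 pairs, with medians of -0.45 to -0.13, and 7 were lower in loser array 3 against 1, with a median of -0.74.

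Joint movement was measured by the Pearson correlation of log2 values between genes, as a description. Over the 12 arrays, the 28 pairs of marker genes had a median r of 0.44 (range -0.29 to 0.87), and 11 pairs, or 39.3%, were at 0.5 or more. All pairs of the 15502 probe sets had a median of 0.0021, with 10.8% at 0.5 or more. After each group's mean was taken off, the 28 pairs had a median of 0.34, with 32.1% at 0.5 or more, against 11.7% of all pairs. Within the 6 winner and loser arrays the median was 0.47, and within the 6 mirror and isolated arrays it was 0.17.

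**Figure D4:**
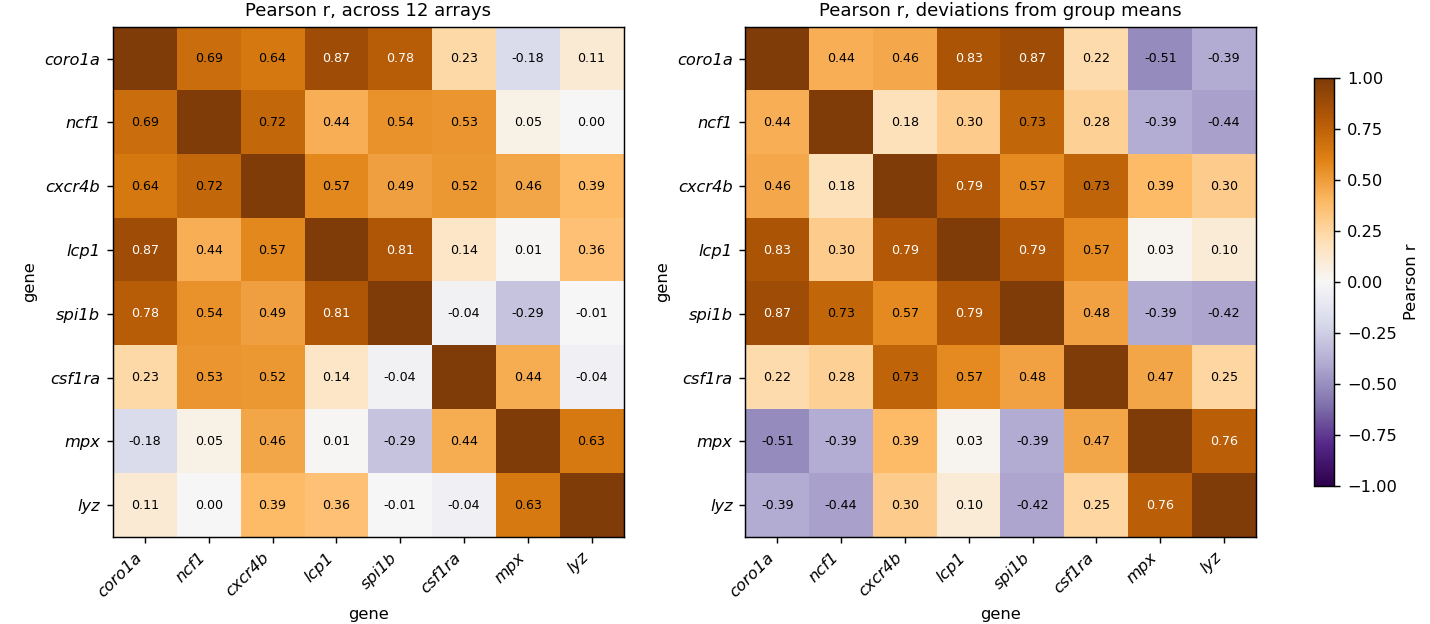
Pearson r between each pair of marker genes (both axes) is coloured from -1 to 1, over the 12 arrays on the left and over deviations from group means on the right. The block of coro1a, ncf1, cxcr4b, lcp1 and spi1b is positive throughout, from 0.44 to 0.87 on the left and from 0.18 to 0.87 on the right, while mpx and lyz pair with each other at 0.63 and 0.76.

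The correlation map divides the genes. The first 5 in its order, coro1a, ncf1, cxcr4b, lcp1 and spi1b, gave 10 pairs with a median r of 0.67 over the 12 arrays and of 0.65 over deviations from group means. Their mean per array was 5.38, 6.20 and 5.38 in winners, 6.55, 6.92 and 5.58 in losers, 6.74, 6.08 and 6.42 in mirror fighters and 7.01, 7.58 and 6.65 in isolated fish. These 5 genes were put together after their values were seen. Loser array 3 on this scale lies with winner arrays 1 and 3, and loser array 2 stands above isolated array 3.

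The coro1a gene was set against each of the other 7 by correlation with permutation tests, adjusted over the 7 relations. The genes were chosen with earlier results of these data known, so the p-values of these 7 relations are given as a description only. They belong to r and rho over all arrays, into which differences between groups enter. They therefore cannot tell joint movement within groups from shared group differences. For r over deviations from group means, no p is given. With lcp1, r was 0.87 (permutation p = 0.00028, adjusted 0.00196) and Spearman's rho was 0.82 (permutation p = 0.00184, adjusted 0.0117). With spi1b, r was 0.78 (permutation p = 0.00263, adjusted 0.0092) and rho 0.79 (permutation p = 0.00334, adjusted 0.0117). These relations remained within arrays of like control level, at r of 0.95 for lcp1 and 0.88 for spi1b in the winner and loser arrays, and at 0.76 for lcp1 and 0.94 for spi1b in the mirror and isolated arrays. Without winner array 1 and isolated array 2, the arrays farthest from the coro1a median, r was 0.80 with lcp1 and 0.67 with spi1b. Over deviations from group means, r was 0.83 with lcp1 and 0.87 with spi1b.

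With ncf1, coro1a had an r of 0.69 (permutation p = 0.0123, adjusted 0.0287) and a rho of 0.73 (permutation p = 0.0099, adjusted 0.0231), and with cxcr4b an r of 0.64 (permutation p = 0.0236, adjusted 0.0412) and a rho of 0.68 (permutation p = 0.0183, adjusted 0.032). These were smaller within the winner and loser arrays, at 0.39 for ncf1 and 0.22 for cxcr4b, than within the mirror and isolated arrays, at 0.69 for ncf1 and 0.70 for cxcr4b. Without the same 2 arrays, r was 0.62 with ncf1 and 0.59 with cxcr4b. Over deviations from group means, r was lower, at 0.44 with ncf1 and 0.46 with cxcr4b. With csf1ra, r was 0.23 (permutation p = 0.470) and rho 0.25 (permutation p = 0.432). With mpx, r was -0.18 (permutation p = 0.567) and rho -0.11 (permutation p = 0.733), and with lyz, r was 0.11 (permutation p = 0.731) and rho 0.11 (permutation p = 0.733).

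The relation of the neutrophil granule genes rested on 1 array. The r between mpx and lyz was 0.63 over the 12 arrays and 0.18 without isolated array 3, where both are at their highest. The receptor csf1ra had an r with cxcr4b of 0.52 over the arrays and 0.73 over deviations from group means. Both were on the same side of their group mean on 11 of 12 arrays, the highest such count of the 28 pairs. Within the winner and loser arrays this r was 0.60, but within the mirror and isolated arrays it was -0.35. With spi1b, csf1ra had an r of -0.04 over the arrays and 0.48 over deviations. Between-group differences made up 76.6% of the variation of csf1ra, 73.2% of cxcr4b, 68.1% of ncf1 and 62.5% of coro1a, but 47.2% of lcp1, 34.2% of spi1b, 24.8% of lyz and 14.4% of mpx, where the median probe set had 36.1%.

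The genes whose log2 values over the 12 arrays lay closest to the mean of the 8 marker genes were sought among 7104 other genes with a probe set that is not dim. The nearest was laptm5, a lysosomal membrane protein of blood cells, at r = 0.92. It read 6.67, 6.94 and 6.44 in winners, 7.49, 8.30 and 6.62 in losers, 7.62, 6.93 and 7.16 in mirror fighters and 8.03, 8.41 and 7.85 in isolated fish, so loser array 3 again fell among the winners. The next were mcm5 (0.91), a replication helicase subunit, arpc1b (0.91), a subunit of the Arp2/3 complex that branches actin filaments, ptprc (0.90), the leukocyte phosphatase CD45, and pfn1 (0.89), a profilin that binds actin monomers. The others were larp1b and mavs at 0.89, arl6ip5a at 0.88, and ponzr1 and mob1a at 0.87, and over deviations from group means the 10 had r of 0.67 to 0.86.

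The closeness to the marker genes chose these 10, so their levels are given as a description. In ptprc the values were 4.79, 6.10 and 4.71 in winners, 6.31, 6.96 and 5.03 in losers, 6.30, 5.61 and 5.60 in mirror fighters and 6.85, 7.82 and 6.49 in isolated fish. In arpc1b they were 6.08, 7.76 and 6.80 in winners, 8.53, 9.02 and 6.85 in losers, 8.97, 7.82 and 8.32 in mirror fighters and 9.16, 9.71 and 8.63 in isolated fish. In both, as in coro1a, winner array 2 was the highest winner array, loser array 3 the lowest loser array and isolated array 2 the highest of all.

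Other leukocyte genes were taken from 9 lists of genes that microglia, neutrophils and lymphocytes use, 112 genes besides the 8, of which 50 had a single-symbol probe set. Limma called 0 of the 50 in each of the 6 comparisons. In winners against isolated fish, 36 of the 50 were below 0 (49% of all probe sets) with a median of -0.35, and 15 had an unadjusted p under 0.05 (19.6% of all probe sets), 14 of them lower. In losers against isolated fish 32 were below 0 (50.8%) with a median of -0.22, and 7 had such a p (21.2%). In mirror fighters against isolated fish 36 were below 0 (49.2%) with a median of -0.24, and 7 had such a p (3.83%). Winners read below mirror fighters for 33 of the 50 (49.5%), with a median of -0.25 and 7 at that p (16.8%). Losers read below mirror fighters for 23 (50.1%), with a median of 0.02 and 3 at that p (17.7%). Winners read below losers for 37 (44.4%), with a median of -0.24 and 0 at that p (4.14%). At that p, the share of the 50 was thus above that of all probe sets in winners and in mirror fighters against isolated fish, and below it in the other 4 comparisons.

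The lists differed in how far they followed the marker genes. Actin regulators of leukocytes (5 measured of the 8 listed besides coro1a and lcp1) had a median of -1.49 in winners against isolated fish, with arpc1b at -2.29 ± 0.58 (SE, limma adjusted p = 0.115), and the mean of the list had an r of 0.90 with the mean of the marker genes over the 12 arrays. Signalling genes (9 of 21) had a median of -0.54 with 8 of 9 below 0 and an r of 0.84, and their smallest p was that of btk, a kinase of B cells and myeloid cells that is dim here, at -1.11 ± 0.22 with an adjusted p of 0.0946. The other receptors (2 measured of 14 listed) had an r of 0.86 but pointed both ways, with ptprc at -1.85 ± 0.54 (adjusted p = 0.140) and cxcr4a at 0.23 ± 0.18.

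Antigen presentation genes (5 of 10) were all below 0 in winners against isolated fish, with a median of -1.34. Their smallest p was that of cd74b, the invariant chain of MHC class II, at -1.80 ± 0.72 (SE, limma adjusted p = 0.217), and the list had an r of 0.76 with the marker genes. The other oxidase subunits (2 of 5) had an r of 0.73 and also pointed both ways, with cyba at -1.08 ± 0.47 (adjusted p = 0.243) and ncf4 at 0.17 ± 0.36. Other neutrophil granule genes (5 of 9) had a median of -0.25 and an r of 0.60, with srgn, the granule proteoglycan serglycin, at -1.09 ± 0.25 and an adjusted p of 0.111.

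Genes listed under microglia (12 of 20) had an r of 0.63 over the arrays and 0.50 over deviations. Both were lower than for the actin and signalling lists. Within the winner and loser arrays, however, the r of the microglia list was 0.78, against 0.72 for the signalling list. Within the mirror and isolated arrays it was 0.25, against 0.92 for the signalling list. In winners against isolated fish 11 of the 12 were below 0, with a median of -0.47. Their smallest p was that of the mannose receptor gene mrc1a at -0.76 ± 0.27 (SE, limma adjusted p = 0.183). Which brain cells expressed mrc1a or the other genes of this list was not tested. The 12 differences of winners from isolated fish ran from -1.27 ± 0.63 for c1qc (limma adjusted p = 0.295) to 0.10 ± 0.36 for the dim ctsl.1. The lipoprotein gene apoeb, abundant in zebrafish microglia, was at -0.23 ± 0.45. The markers p2ry12 and mpeg1.1 were on the list, but no single-symbol probe set was found under these names, so they were not measured. The transcription factors other than spi1b (7 of 11) had an r of 0.08 over the 12 arrays, but of 0.55 over deviations from group means. Their median was 0.08 in winners against isolated fish, and ikzf1 was at -0.79 ± 0.39 in mirror fighters against isolated fish (adjusted p = 1.00).

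The lymphocyte genes (4 of 16) had an r of 0.06 over the arrays and 0.49 over deviations. In winners against isolated fish their median was 0.42, with 3 of 4 above 0. It rested on tox at 0.89 ± 0.25 (SE) and gata3 at 0.84 ± 0.42, since rag1 was at 0.002 ± 0.16 and rag2 at -1.21 ± 0.35. Whether tox and gata3 stood for lymphocytes in these brains was not tested. In losers against isolated fish their median was 0.51, also with 3 of 4 above 0. The dim rag2 was the 1 gene below 0 there, at -1.25 ± 0.35 (SE) with a limma adjusted p of 0.105. Its group means, 0.35 in losers and 1.60 in isolated fish, are near the floor of the data. The ligands of the receptors (3 of 9) had an r of 0.01 over the arrays, but of -0.78 over deviations from group means. In winners against isolated fish, cxcl12a, which encodes a ligand of Cxcr4, was at -0.66 ± 0.25 (limma adjusted p = 0.204). The cxcl12b gene pointed the other way there, at 0.15 ± 0.40.

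**Figure D5:**
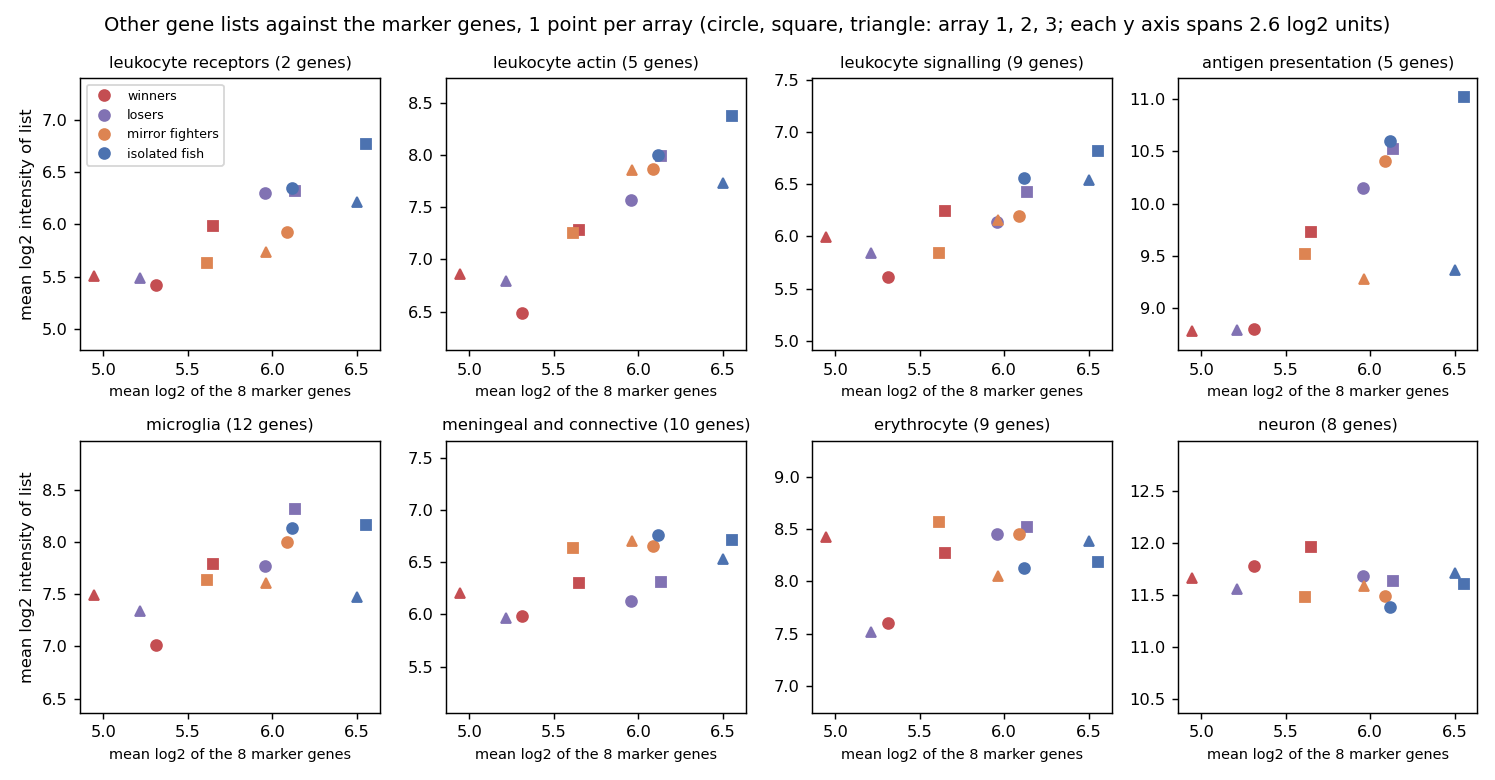
The mean log2 intensity of 8 other gene lists (y axes, each spanning the same number of log2 units) is plotted against the mean of the 8 marker genes (x axes), with 1 point per array. Over the 12 arrays, the receptor, actin and signalling lists climb with the marker genes at r of 0.86, 0.90 and 0.84. The erythrocyte (0.37) and neuron (-0.18) lists follow them less closely over the 12 arrays, but over deviations from group means their r was 0.43 and 0.72.

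Genes of other cell types that a dissected brain can carry were measured beside these, as the plot of lists against the marker genes shows. Connective tissue genes of the meninges (10 of 13 measured) had an r of 0.67 with the marker genes. Their summed intensity was 1058 to 1422 in winners and 1081 to 1491 in losers, against 1655 to 1911 in mirror fighters and 1386 to 1974 in isolated fish. The median over the 10 genes of the limma log2 difference was 0.02 in winners against losers, 0.00 in mirror fighters against isolated fish and -0.46 in winners against isolated fish. The smallest p was that of timp2b, a metalloproteinase inhibitor, at -1.13 ± 0.23 (SE) in losers against isolated fish with a limma adjusted p of 0.0619.

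Endothelial genes (6 of 15) had an r of 0.62 over the arrays and 0.83 over deviations, with summed intensities of 517 to 754 in winners, 404 to 580 in losers, 661 to 832 in mirror fighters and 621 to 698 in isolated fish. One of them, the vascular transcription factor gene fli1, is the sole gene of the 17 lists that limma called in any of the 6 comparisons. Its level in losers was lower by 1.33 on the log2 scale than in isolated fish (limma adjusted p = 0.0471), where 0.568% of all probe sets were called. Another fli1 probe set pointed the other way.

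Erythrocyte genes (9 of 13) had an r of 0.37, with summed intensities of 7492 to 14467 in winners, 8665 to 15719 in losers, 12070 to 16310 in mirror fighters and 11832 to 15243 in isolated fish, so 1 array in each of the winner and loser groups was low for blood. Those arrays were winner array 1 and loser array 3, which were also the lowest of their groups for coro1a. For the mean of the 8 marker genes, loser array 3 was again the lowest loser array (5.21), but winner array 3 was the lowest winner array (4.94). Winner array 3 had the highest summed erythrocyte intensity of the winners, 14467. The smallest p of the list was that of urod, a haem synthesis gene, at 0.36 ± 0.15 (SE) in losers against isolated fish with a limma adjusted p of 0.200. Thrombocyte genes (3 of 6) had an r of 0.03, with summed intensities of 62.1 to 95.2 in winners, 71.6 to 74.0 in losers, 67.7 to 77.1 in mirror fighters and 70.5 to 84.1 in isolated fish, and the smallest p was that of the clotting factor gene f5 at -0.34 ± 0.16 in losers (adjusted p = 0.247).

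The neural lists had medians between -0.12 and 0.17 in winners against isolated fish. Neuron genes (8 of 14) had a median of 0.17 and an r of -0.18, with elavl3 at 0.80 ± 0.29 (SE, limma adjusted p = 0.187). Oligodendrocyte genes (5 of 10) had a median of -0.12 and an r of 0.36, with sox10 at 0.44 ± 0.23 in losers (adjusted p = 0.287), and radial glia genes (8 of 11) had a median of -0.02 and an r of 0.19, with the glutamate transporter gene slc1a3a at -0.71 ± 0.37 in winners (adjusted p = 0.313). Over deviations from group means, r was 0.72 for the neuron, 0.41 for the oligodendrocyte and 0.03 for the radial glia list. On that scale the leukocyte signalling list had 0.70, so between arrays of a group the neuron genes followed the marker genes about as closely. The part of meningeal, vascular and blood cells in the levels of the marker genes was not tested. The level of the hybridization controls had an r of 0.38 with the marker genes' mean among the 6 winner and loser arrays, and of -0.33 among the 6 mirror and isolated arrays.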

How the data were processed

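RNA of whole zebrafish brains was hybridized to 12 one-colour Affymetrix arrays, 3 per group. The labels give 100 ng of total RNA per labelling and name conflicting extractions, a column kit and Trizol. The deposited series table holds a linear intensity for each probe set on each array, whose summary and normalization are not given in the sources used here; the submitters' processing notes name Partek 6.6. Of 15617 probe sets, 115 controls were left out of the tests. The platform annotation gave 10795 probe sets 1 symbol, 135 several and 4572 none, and 10711 were found in the zebrafish gene table. The labels name no genome build, and coordinates are left out.

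The log2 of each intensity was fitted with limma 3.58.1 in R 4.3.3, with 1 mean per group, 8 residual and 2.55 prior degrees of freedom. The 6 comparisons of groups and an F-test used two-sided p-values, and a call is a Benjamini-Hochberg adjusted value under 0.05 over 15502 probe sets. Correlations used 100000 permutations, two-sided, with scipy 1.17.1. Probe sets under a mean log2 of 5.02, the lowest 25%, are called dim. The fit was tested on simulated data.

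Named are the 8 marker genes, the 10 nearest genes, and of the 17 lists the gene with the smallest p against isolated fish and every called gene. The lists share wasb, counted once over the 9 leukocyte lists. The naming of apoeb, c1qc, ctsl.1, cxcr4a, cxcl12b, ncf4, tox, gata3 and rag1 came after seeing their values. The genes and lists were chosen with earlier results of these data known. Same-numbered winner and loser arrays deviated together from their group means, at correlations of 0.112, 0.111 and 0.233. Each other pair of groups had at least 1 such correlation under 0.1, though single ones reached 0.211 (mirror and isolated arrays 3). The labels do not say whether same-numbered winner and loser arrays belong together. They were read as pairs beside the main fit, which uses no pairing. The number of arrays limits the precision. Alternatives were other normalizations, an offset of 32, no dim probe sets, trended moderation, a replicate block, the control level as a covariate, the mean of a gene's probe sets, each comparison's 2 groups alone, and each array left out.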

Additional observations from a re-analysis of the deposited data

How the results depend on the processing

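Without 1 array at a time, no marker gene was called in any of the 6 comparisons or the F-test (0 to 0). The median of the 8 differences ranged over -1.44 to -0.97 in winners, -0.70 to -0.36 in losers and -0.86 to -0.33 in mirror fighters against isolated fish, -0.77 to -0.39 in winners and -0.36 to -0.03 in losers against mirror fighters, and -0.83 to -0.19 in winners against losers. The median r of the 28 pairs ranged over 0.32 to 0.46, and over deviations from group means 0.21 to 0.56.

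One gene was called in losers against mirror fighters after quantile normalization (1, csf1ra) and without the dimmest 25% of probe sets (1). In losers against isolated fish 1 was called with 32 added (1, cxcr4b) and without the dimmest (1), which leaves 7 genes and fewer tests. These calls stand without the share of all probe sets called under the same settings, which is not given here. With 32 added, the winner median against isolated fish was -0.76, since an offset shrinks differences of low values. With the control level as a covariate the medians against isolated fish were -1.98 in winners and -1.18 in losers, and against mirror fighters -1.27 in winners and -0.70 in losers. The control level does not overlap between the groups of these comparisons, so these medians cannot separate it from the fights. With the mean of a gene's probe sets, losers against mirror fighters had a median of 0.21; the cause was not tested.

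The replicate block called 0 marker genes in each comparison, with medians as without it (-1.20 in winners and -0.49 in losers against isolated fish) and the lowest adjusted p at 0.0623; over the winner and loser arrays alone, a fit added after seeing the data, it called 0 with the lowest at 0.919. Of 1010 differences of single genes under the alternatives, 967 kept their direction and side of the threshold, 39 uncalled values changed sign and 4 passed the threshold. The number of arrays and the dim probe sets of mpx limit what can be seen.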
